A study of Arabidopsis thaliana with 14 samples.

Results

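Genes of salicylic acid synthesis and of its pathogenesis-related (PR) output were examined in a fen1 mutant of Arabidopsis thaliana. They comprised PBS3, CBP60G, NIMIN1, PR1 and PR5, chosen by their gene identifiers, and made up 5 of the 1114 genes in the deposited RNA table. PBS3 and CBP60G act in synthesis, PR1 and PR5 are output genes, and NIMIN1 is a co-regulator that stands between them. The control was the transgenic wild type (TWT), and both genotypes were untreated whole seedlings of the C24 ecotype, 10 days old, grown on plates. RNA came from 2 libraries of each genotype, and chromatin immunoprecipitation from 1 library per histone mark and genotype, of which the TWT peak lists of 3 marks were used. The labels name neither the transgene nor the kind of fen1 mutation, and leave it unsaid whether RNA libraries of the same genotype were separate cultures. FEN1 encodes flap endonuclease 1, which trims DNA flaps in replication and repair, and its own RNA in the authors' deposited table was at 22.7 FPKM in fen1 against 14.5 FPKM in TWT.

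Salicylic acid is the plant hormone of defence against pathogens that feed on living cells. Most of it is made from isochorismate in the chloroplast: CBP60g, a calmodulin-binding transcription factor, switches the synthesis genes on, and PBS3 joins glutamate to isochorismate to form the direct precursor. The hormone is sensed by NPR1 and its relatives, which act with TGA transcription factors on output genes such as PR1. C24 is an accession known for raised basal salicylic acid signalling.

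The table gave 1 level per gene and genotype, taken to be FPKM, which corrects fragment numbers for the length of the transcript and the size of the library, so no spread between libraries stands beside any level. A gene was called where the authors' own test gave a q-value, the p-value adjusted over all genes they tested, under 0.05. The table lists called genes only, so each of the 5 genes had to be called to be in it, and their number is no finding. By that rule 5.53% of the 20132 genes tested were called, 3.40% higher and 2.14% lower in fen1. At a q-value under 0.01 the shares were 2.48% and 1.23%, and with a change of at least 2-fold they were 1.59% and 0.631%.

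The synthesis genes were higher in fen1 and the output genes lower. PBS3 (AT5G13320, chromosome 5, 4267510 to 4271051, plus strand, TAIR10) stood at 5.13 FPKM in TWT and 11.4 FPKM in fen1. This was a 2.22-fold rise (log2 1.15, q = 0.00173 in the authors' deposited table). CBP60G (AT5G26920, chromosome 5, 9475682 to 9478751, plus strand) stood at 8.04 FPKM in TWT and 15.9 FPKM in fen1. Its rise was 1.97-fold (log2 0.98, q = 0.00173 in the authors' deposited table), so both synthesis genes about doubled. By size of change PBS3 ranked 260 and CBP60G 327 of the 684 higher genes, whose median log2 was 0.95. Rises of this size were thus common in the table. In RNA of whole seedlings, fewer cells of a type and less RNA per cell cannot be told apart.

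PR1, which encodes a secreted protein used as the standard marker of salicylic acid responses, had the largest change of the 5. PR1 (AT2G14610, chromosome 2, 6241704 to 6242463, minus strand) stood at 28.7 FPKM in TWT against 5.67 FPKM in fen1. It was 5.06-fold lower (log2 −2.34, q = 0.00173 in the authors' deposited table) and ranked 25 of the 430 lower genes by size of change. PR5, a thaumatin-like protein secreted during defence, changed in the same direction. PR5 (AT1G75040, chromosome 1, 28177703 to 28178940, plus strand) had 29.8 FPKM in TWT and 12.0 FPKM in fen1, 2.49-fold lower (log2 −1.31, q = 0.00173 in the authors' deposited table), and ranked 87 of the 430.

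NIMIN1 encodes a small protein that binds NPR1 and dampens PR1 activation. Its transcript moved with the PR genes and not with the synthesis genes. NIMIN1 (AT1G02450, chromosome 1, 497976 to 498516, minus strand) went from 16.7 FPKM in TWT to 9.82 FPKM in fen1. It was 1.70-fold lower (log2 −0.77, q = 0.0279 in the authors' deposited table), the smallest change and the largest q-value of the 5. NIMIN1 ranked 200 of the 430 lower genes by size of change. NIMIN1 is also the shortest gene, spanning 541 bases. Its level implies at most 9.03 fragments per 1000000 in TWT and 5.31 in fen1, taking the whole span as transcript. The same bound for PR1 fell from 21.8 to 4.31 fragments per 1000000, and for PBS3 it rose from 18.2 to 40.4. NIMIN1 in both genotypes and PR1 in fen1 had the lowest bounds. Transcript lengths were not used, so the bounds do not rank the genes by their fragments.

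**Figure D1:**
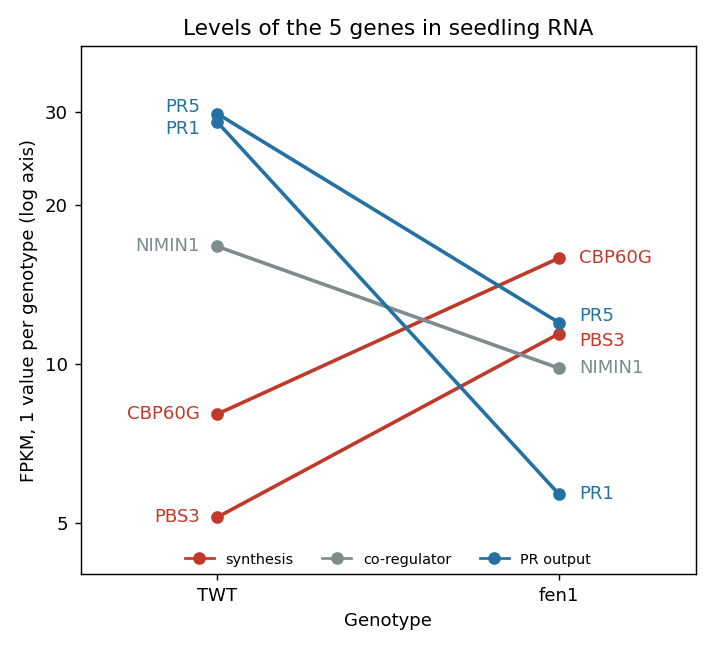
FPKM of the 5 genes in TWT and fen1 on a log axis, 1 value per genotype with no error available; lines join the values of a gene and colours give its role. PR5 and PR1 lead in TWT at 29.8 and 28.7 FPKM, while in fen1 CBP60G leads at 15.9 FPKM and PR1 is last at 5.67 FPKM.

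The order of the levels turned over between the genotypes. In TWT the order was PR5, PR1, NIMIN1, CBP60G and PBS3. In fen1 it was CBP60G, PR5, PBS3, NIMIN1 and PR1. Because FPKM is scaled to length, levels of different genes can be set side by side, but without values per library it is not known which neighbours in these orders differ beyond their spread. PR5 and PR1 in TWT, and PR5 and PBS3 in fen1, were the closest neighbours.

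Set against PBS3, the PR1 level was 5.60 times as high in TWT and 0.50 times as high in fen1. The ratio of PR1 to CBP60G was 3.57 in TWT and 0.36 in fen1. PR5 kept more of its level: its ratio to PBS3 was 5.81 in TWT and 1.05 in fen1. The 2 synthesis genes kept similar proportions, with a PBS3 to CBP60G ratio of 0.64 in TWT and 0.72 in fen1. The 2 output genes did not, as PR1 was 0.96 times the PR5 level in TWT and 0.47 times in fen1.

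Summed over the pair, the synthesis genes had 13.2 FPKM in TWT and 27.3 FPKM in fen1, and the output genes 58.5 FPKM in TWT and 17.7 FPKM in fen1. The mean log2 fold change was 1.07 for PBS3 and CBP60G and −1.83 for PR1 and PR5, a difference of 2.89 on the log2 scale. With 2 genes on each side and no values per library this difference has no test. The directions rest on the authors' test of each gene. These genes were chosen with earlier results of these data known, so the contrast describes them and its size is no finding. Over every called gene of the synthesis and output lists described below, the difference was 1.22.

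**Figure D2:**
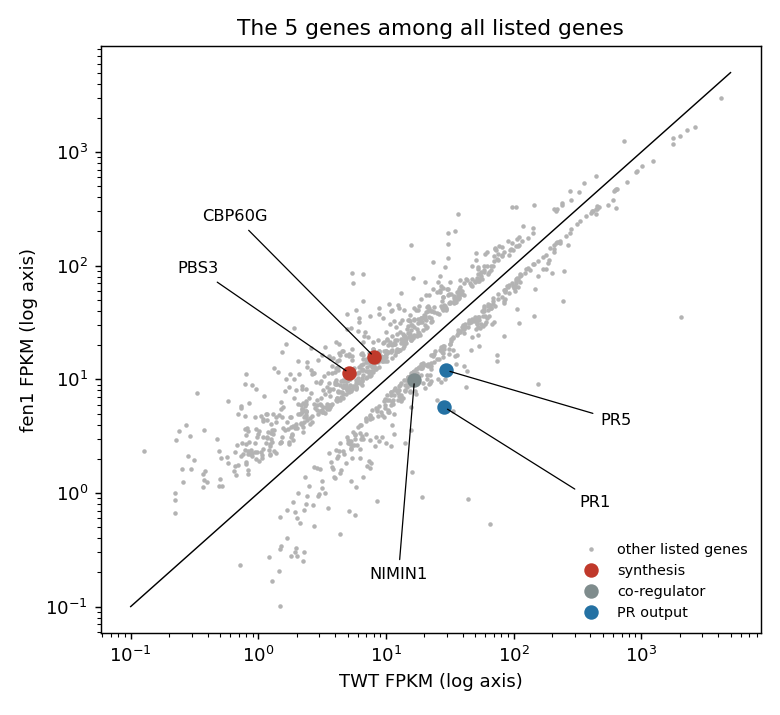
TWT against fen1 FPKM, both on log axes, for the listed genes above 0 in both genotypes; the line marks equal levels and the grey points are the other listed genes. PBS3 and CBP60G lie above the line, at 11.4 and 15.9 FPKM in fen1, and NIMIN1, PR5 and PR1 below it.

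The rest of the pathway was described from gene lists, counting genes called in each direction. Over all genes tested 3.40% were called higher and 2.14% lower, and at these shares short lists often hold none in a direction. Of 21 genes of salicylic acid synthesis and its regulators, 3 were called higher, 1 lower and 17 were not listed. Beside PBS3 and CBP60G the higher gene was ICS2, one of the isochorismate synthase genes, at 6.62 FPKM in TWT and 13.7 FPKM in fen1 (log2 1.04, q = 0.00173 in the authors' deposited table). The lower gene was PAL3, of the phenylalanine ammonia-lyase route, at 22.6 FPKM in TWT and 12.2 FPKM in fen1 (log2 −0.89 in the authors' deposited table). The median log2 fold change of the 4 called genes was 1.01, against 0.62 over all 1114 listed genes and 0.95 over the 684 higher ones. ICS1, which makes most of the isochorismate in defence, its transport partner EDS5, SARD1, EDS1 and PAD4 were not listed. A gene outside the table was either tested and not called or not tested, and has no value. Without PBS3 and CBP60G, 1 of the other 19 genes was higher and 1 lower.

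Genes that act on salicylic acid once it is made formed the next list. Of 10 such genes 4 were higher and none lower, against 3.40% higher and 2.14% lower of all genes tested. At 2.14%, none lower among 10 genes is no finding. The log2 fold changes of the 4 ran from 0.74 to 2.06 in the authors' deposited table. Their median was 1.2, against 0.95 over the 684 higher genes. UGT74F2, a salicylic acid glucosyltransferase, stood at 9.43 FPKM in TWT and 15.8 FPKM in fen1. SOT12, a sulphotransferase that accepts salicylic acid, stood at 9.56 FPKM in TWT and 20.9 FPKM in fen1. DLO1, a hydroxylase that turns the hormone over, went from 4.08 to 9.83 FPKM, and the glucosyltransferase gene UGT76D1 from 0.84 to 3.49 FPKM. All 4 passed the authors' test at q = 0.00173 in the authors' deposited table.

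N-hydroxypipecolic acid is the mobile partner signal of salicylic acid in systemic resistance. Of 4 genes of that branch 2 were called, both higher, against 3.40% higher of all genes tested. Their median log2 fold change was 1.28. FMO1, which makes the signal, was low, at 0.58 FPKM in TWT and 1.85 FPKM in fen1 (log2 1.67, q = 0.00462 in the authors' deposited table). UGT76B1, which glucosylates both signals, stood at 13.5 FPKM in TWT and 25.0 FPKM in fen1 (log2 0.89 in the authors' deposited table). ALD1 and SARD4, the other genes of the branch, were not listed.

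Of 20 genes of perception and its regulators, none was called higher and 3 lower, NIMIN1 among them. The shares over all genes tested were 3.40% higher and 2.14% lower, so none higher among 20 genes is no finding. Without NIMIN1, 2 of the other 19 genes were lower. The 3 lower genes had a median log2 fold change of −0.77, against −0.72 over the 430 lower genes of the table. WRKY70, a transcription factor downstream of NPR1, was the most abundant, at 98.7 FPKM in TWT and 66.0 FPKM in fen1 (log2 −0.58, q = 0.00322 in the authors' deposited table). WRKY38, a factor induced by salicylic acid that restrains defence, had 6.61 FPKM in TWT and 2.98 FPKM in fen1 (log2 −1.15 in the authors' deposited table). The receptors NPR1, NPR3 and NPR4, the TGA factors on the list, and the NIMIN1 relatives NIMIN2 and NIMIN3 were not listed.

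Among 13 output genes 5 were called lower and 1 higher, with a median log2 fold change of −0.91 over the 6 in the authors' deposited table. Without PR1 and PR5, 3 of the other 11 were lower and 1 higher, against 2.14% lower and 3.40% higher of all genes tested. BG3, a β-1,3-glucanase, fell about as far as PR1, from 5.77 FPKM in TWT to 1.14 FPKM in fen1 (log2 −2.34, q = 0.00173 in the authors' deposited table). Its close relative PR2, often used as a marker beside PR1 and PR5, was not listed. The treatment of reads shared by such relatives was not given. Smaller falls were those of ACD6, a membrane protein that promotes salicylic acid signalling (32.1 to 22.7 FPKM, log2 −0.50, q = 0.00717 in the authors' deposited table), and LURP1. LURP1, a gene required for basal defence against downy mildew, was the most abundant output gene listed, at 372 FPKM in TWT and 271 FPKM in fen1 (q = 0.0469 in the authors' deposited table).

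The output gene that rose was SAG13, a short-chain dehydrogenase gene of senescing and stressed leaves. It stood at 0.97 FPKM in TWT and 8.19 FPKM in fen1 (log2 3.09, q = 0.00173 in the authors' deposited table), the largest change of any gene on these lists. Its direction was opposite to that of PR1 and PR5. Over every called gene, the mean log2 fold change was 0.57 for the 4 synthesis genes and −0.64 for the 6 output genes, a smaller separation than between the pairs of PBS3 with CBP60G and PR1 with PR5.

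**Figure D3:**
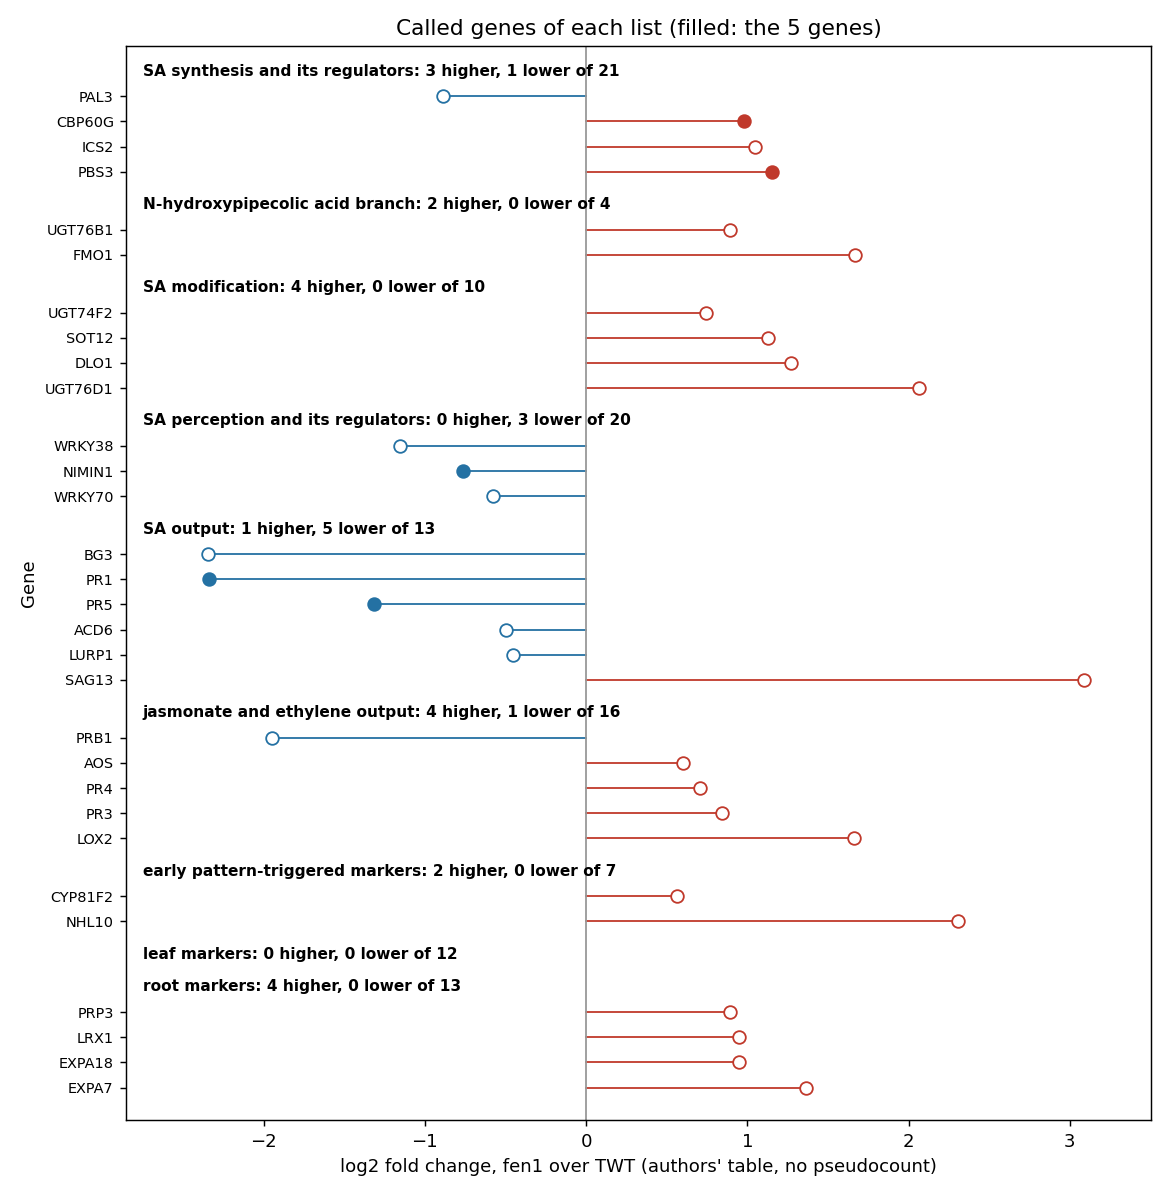
Log2 fold change of fen1 over TWT for each called gene of the gene lists, from the authors' table with no pseudocount; red is higher in fen1, blue lower, and filled points are PBS3, CBP60G, NIMIN1, PR1 and PR5. Called genes of salicylic acid modification lie at 0.74 to 2.06, and those of perception at −1.15 to −0.58.

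Jasmonate and ethylene steer another branch of defence, whose output genes include PR proteins of their own. Of 16 genes 4 were called higher and 1 lower, against 3.40% higher and 2.14% lower of all genes tested. The median log2 fold change of the 5 was 0.71. The basic chitinase gene PR3 stood at 31.3 FPKM in TWT and 56.0 FPKM in fen1, and the hevein-like gene PR4 at 110 FPKM in TWT and 179 FPKM in fen1. The log2 fold changes were 0.84 for PR3 and 0.71 for PR4 in the authors' deposited table. Jasmonate synthesis genes rose as well, and in the authors' deposited table LOX2 went from 104 to 328 FPKM (log2 1.66) and AOS from 81.3 to 123 FPKM (log2 0.60). PR3 and PR4 were thus higher in the seedlings in which PR1 and PR5 were lower. The defensin genes PDF1.2a, PDF1.2b and PDF1.2c and the VSP genes were not listed.

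The lower gene of that list was PRB1, the basic relative of PR1. PRB1 (AT2G14580, chromosome 2, 6225535 to 6226224, minus strand, TAIR10) stood at 7.39 FPKM in TWT and 1.91 FPKM in fen1 (log2 −1.95, q = 0.00173 in the authors' deposited table). The authors' annotation names it as the best protein match of PR1, and 15479 bases separate the genes. With no statement on reads that match both, the separate levels of PR1 and PRB1 are uncertain. The best matches of the other 4 genes were not listed.

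Early markers of pattern-triggered immunity were called higher in 2 of 7 cases and lower in none. The shares over all genes tested were 3.40% higher and 2.14% lower. The median log2 fold change of the 2 markers was 1.43. CYP81F2, an enzyme of indole glucosinolate metabolism, had 7.08 FPKM in TWT and 10.4 FPKM in fen1 (q = 0.0270 in the authors' deposited table). NHL10 had 0.94 FPKM in TWT and 4.64 FPKM in fen1 (log2 2.30, q = 0.00322 in the authors' deposited table). FRK1 and WRKY33 were not listed.

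Markers of leaf and root were counted because the RNA came from whole seedlings. None of 12 leaf markers was listed, but some abundant photosynthesis genes outside that list, looked up after the data were seen, were lower in fen1. Of 4 listed genes described as photosystem or chlorophyll-binding proteins, 3 were lower: LHB1B1 (2279 to 1579 FPKM), PSAF (2024 to 1371 FPKM) and PSAD-2 (609 to 454 FPKM), with log2 fold changes from −0.56 to −0.42 in the authors' deposited table. Over all listed genes 38.6% were lower, so 3 of 4 in so small a set is no finding. The remaining gene of the 4, ELIP1, a gene induced by light stress, was low, at 1.08 FPKM in TWT. It rose to 4.31 FPKM in fen1 (log2 2.00, authors' deposited table). The ferredoxin gene AT1G60950, in neither set and named without a rule set beforehand, stood at 2629 FPKM in TWT and 1652 FPKM in fen1. Of 13 root markers 4 were called higher and none lower, against 3.40% higher and 2.14% lower of all genes tested. All 4 were genes of root hairs (EXPA7, EXPA18, LRX1 and PRP3). Their summed level rose from 39.8 FPKM in TWT to 77.6 FPKM in fen1, with a median log2 fold change of 0.95. The other 9 root markers were not listed and have no value. They include COBL9, also a gene of root hairs, and SHR, SCR, WOX5, PLT1 and CASP1, which are not. The part of tissue make-up in the changes of PR1, PR5, NIMIN1, PBS3 and CBP60G was not tested.

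In chromatin of TWT, H3K27me3, the mark of Polycomb repression, covered both output genes. A mark was assigned to a gene whose body shared 1 base or more with a peak, and peak scores are the authors' own, from 1 library per mark. The PR1 peak (chromosome 2, 6241647 to 6242660, TAIR10) covered 100% of the gene, from 197 bases before its start to 816 bases after it. Its score of 361 was at or above 85.1% of the 9239 H3K27me3 peaks. A further H3K27me3 peak lay 2079 bases upstream of PR1. The PR5 peak (chromosome 1, 28177704 to 28179103) covered 99.9% of the gene, with a score of 157 at the 58.7th percentile.

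PBS3 carried H3K27me3 as well, over a part of the gene. Its peak (chromosome 5, 4269092 to 4270729) covered 46.2% of the gene, starting 1582 bases after the gene's start, and its score of 61.3 was at the 13.1th percentile of the list. No H3K4me3 peak overlapped PBS3, PR1 or PR5, and the nearest ones were 903, 25778 and 1168 bases away.

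H3K4me3, a mark of active promoters, was on the other 2 genes. The CBP60G peak (chromosome 5, 9475540 to 9477516) ran from 142 bases before the start to 1834 bases into the gene. The NIMIN1 peak (chromosome 1, 497815 to 498671) covered the whole gene. Both scores were low for the list, 118 for CBP60G and 86.1 for NIMIN1, at the 5.44th and 3.20th percentile of 15540 peaks with a median score of 1202. No H3K9me2 peak, the mark of silent heterochromatin, overlapped any of the 5 genes. The nearest one lay 1376 bases upstream of NIMIN1, with a score of 98.8, and the others were between 7484 and 66553 bases away.

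**Figure D4:**
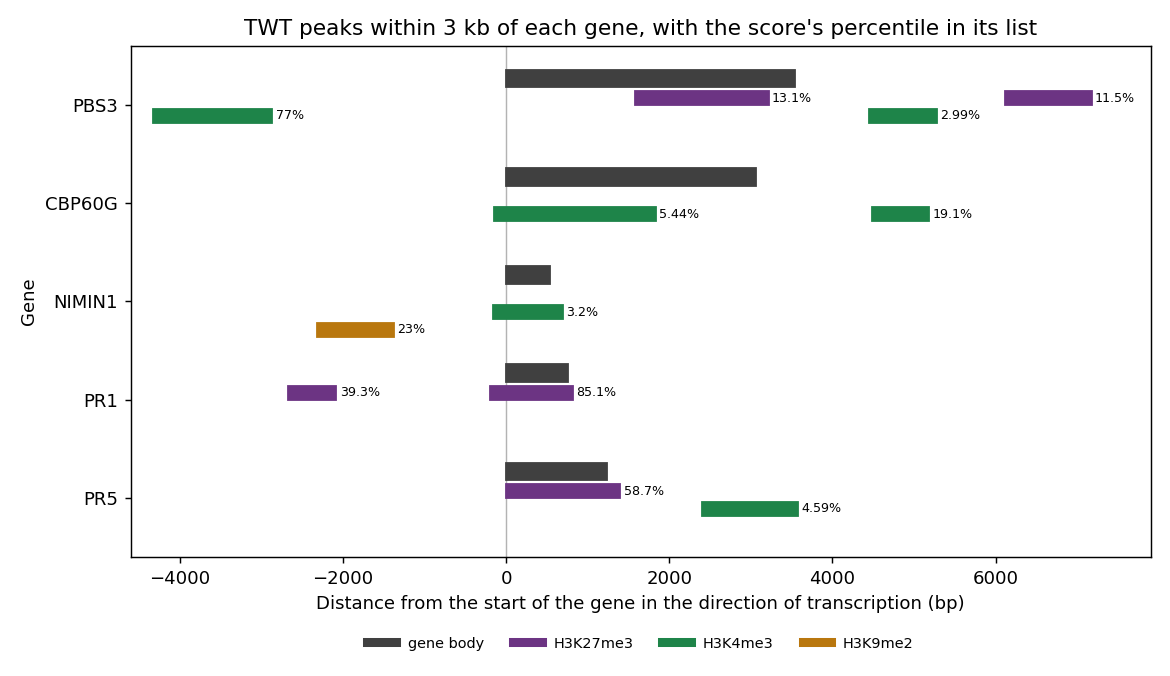
TWT peaks within 3 kb of each gene, by distance in bases from the gene's start in the direction of transcription; grey bars are gene bodies, coloured bars peaks, and the number beside a peak is the percentile of its score in its list. H3K27me3 covers PR1 and PR5, and the H3K4me3 peaks over CBP60G and NIMIN1 have low scores, at the 5.44th and 3.20th percentile.

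Neither mark went with 1 direction of change among the 5 genes. H3K27me3 was on 3 of them, of which PR1 and PR5 were lower and PBS3 higher in fen1, while it was on 37.0% of all 1114 listed genes, 39.8% of the higher and 32.6% of the lower ones. H3K4me3 was on 2, of which CBP60G was higher and NIMIN1 lower, while it was on 53.8% of listed genes, 46.8% of the higher and 64.9% of the lower ones. H3K9me2 was on 2.78% of listed genes. In the 5 salicylic acid lists, H3K27me3 was on 3 of the 10 higher genes and 5 of the 9 lower genes, and H3K4me3 on 4 of each. Of the higher genes 4 had no peak, among them ICS2 and DLO1, and each of the 9 lower genes had 1 of these marks. Over all listed genes, 21.6% of the higher and 9.53% of the lower ones had no peak, so in genes without a peak the lists leaned the same way as the table. For H3K27me3 the lists leaned the other way from the table, on counts too small to be a finding. The levels of those lower genes in TWT had a median of 28.7 FPKM and those of the higher genes 5.88 FPKM, and the part of the TWT level in these counts was not tested. These peaks are from TWT alone and say nothing of the marks in fen1.

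The surroundings of each gene were read from the annotation. No annotated gene overlapped any of the 5. Of the 10 genes next to them, 1 was listed, against 5.53% of all genes tested, so this count is no finding. It was RAP2.6L, an ethylene response factor gene that follows PBS3 on the same strand after 1008 bases. RAP2.6L (AT5G13330, chromosome 5, 4272060 to 4274660, TAIR10) stood at 5.04 FPKM in TWT and 9.94 FPKM in fen1 (log2 0.98, q = 0.00173 in the authors' deposited table), close to PBS3 in level and change. Within 50 kb of PR1 the listed genes were PRB1 and LURP1, both lower in fen1 as PR1 was, while 38.6% of all listed genes were lower. The fall of LURP1 was small (log2 −0.45, q = 0.0469 in the authors' deposited table), and PRB1 may share reads with PR1. The genes tested within 50 kb were not counted, so these neighbours describe position only. Around NIMIN1 the listed genes went the other way: the chitinase gene AT1G02360 (log2 0.56) and ABCB11 (log2 1.62) were higher in the authors' deposited table while NIMIN1 was lower. No listed gene lay within 50 kb of CBP60G or PR5. Beyond that window, FEN1 itself lies on the same chromosome as CBP60G, at 9311875 to 9315475 against 9475682 to 9478751. FEN1 was also higher in fen1 (log2 0.65 in the authors' deposited table). The part of this closeness in the change of CBP60G was not tested. AT5G13370, a gene of the GH3 family to which PBS3 belongs, lay 15767 bases from it and rose from 13.5 to 18.7 FPKM (q = 0.0279 and log2 0.47 in the authors' deposited table).

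The listed genes most like each of the 5 were found by the Euclidean distance over the 2 genotype levels as log2(FPKM + 1). With 2 values per gene many genes are close by, so likeness is a description of level only. Nearest to PR1 was AT4G19530, a TIR-NBS-LRR immune receptor gene, at a distance of 0.23, with 33.2 FPKM in TWT and 5.24 FPKM in fen1. PR1 had few such neighbours, the third being HSPRO2 at 0.65. Nearest to PR5 was the ferritin gene FER4 at 0.024, and to PBS3 the late embryogenesis gene M17 at 0.013. SULTR4;2, a sulphate transporter gene, was nearest to CBP60G at 0.062 and AT5G59080 to NIMIN1 at 0.012.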

How the data were processed

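RNA was sequenced from 2 TWT and 2 fen1 libraries, and the deposited table holds 1 value per genotype. Cuffdiff 2.1.1, TopHat2 2.1.1, Bowtie 0.12.9, SAMtools and the TAIR10 build were used, per the submitters' processing notes, which assign no roles. The authors' FPKM values were read as such from the table's Cuffdiff layout, since its header names no unit. The authors' log2 fold changes, p-values and q-values are used as deposited, per the file headers; their smallest p-value, 5e-05, is shared by 582 genes. The number of genes tested was computed from q, rank and p. The authors' peak lists give a score per peak; the names point to MACS, with settings not given in the sources used here. BED starts were made 1-based. Read depth per library is unknown. TAIR10 is a Columbia genome and the seedlings were C24, and the effect of that on levels was not tested.

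Counts, ratios, overlaps and distances were computed with Python 3.11.15 and pandas 2.3.3, after a check on simulated data. No test was added, as no values per library were used. The 9 gene lists hold 116 entries, 113 with that name in the TAIR10.1 gene table, which gave symbols for 1113 of 1114 identifiers and the order of genes. Genes planned to be named were the 5 members, all called list genes, FEN1, neighbours, best protein matches and the 3 nearest in level. Photosynthesis genes outside the leaf list and genes whose annotation names salicylic acid were added after the data were seen. Members and lists were chosen with earlier results of these data known. The planned protein comparison and promoter motif search were not made; best matches came from the authors' annotation, and the 50 kb neighbourhood was added after seeing the data. The fen1 ChIP, H3 and input libraries were not analysed here.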

Additional observations from a re-analysis of the deposited data

How the results depend on the processing

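All 5 genes kept their direction under each alternative run, but most runs could not have changed it. A stricter cutoff reuses the same fold change, and a pseudocount cannot reverse its sign. Only subtracting the median could have done so, and only for PBS3 and CBP60G. At q under 0.01 NIMIN1 (log2 −0.77) was no longer called, and with at least a 2-fold change required neither NIMIN1 (−0.77) nor CBP60G (0.98) was. Subtracting 0.62, the median log2 of the listed genes, left PBS3 at 0.54, CBP60G at 0.37 and PR1 at −2.95. The difference of synthesis and output genes was 2.66 with log2(FPKM + 1) and 1.22 over every called gene of both lists. With at least 2-fold changes, counts moved to 0 lower synthesis genes, 1 higher gene of the N-hydroxypipecolic acid branch, 1 lower perception gene, 3 lower output genes, 1 higher jasmonate or ethylene gene, 1 higher pattern-triggered marker and 1 higher root marker; higher synthesis genes went from 3 to 2 and higher modification genes from 4 to 3. At q under 0.01, 1 pattern-triggered marker was left, lower perception genes went from 3 to 2 and lower output genes from 5 to 4; the other list counts were the same. Requiring 1 FPKM in one genotype changed no count. With peaks at or above the median score, 0 of the 5 genes carried H3K4me3; H3K27me3 was on 2, PR1 and PR5, and likewise when 50% of the gene had to be covered. With 1000 bases added on each side, PBS3 gained H3K4me3 from a peak 903 bases downstream, which lies across the start of the next gene, RAP2.6L. No paired analysis was possible because the table holds 1 value per genotype; for the same reason no library could be left out. NIMIN1 and, in fen1, PR1 had the lowest upper bounds on fragments, and without values per library the precision of their levels is not known.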

Other observations

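The annotation text of 18 listed genes names salicylic acid, a search made after the data were seen. Of these, 12 were higher and 6 lower in fen1, and 12 lay outside the gene lists, 7 higher and 5 lower. Over all listed genes 61.4% were higher, so these counts are near the split of the whole table. The largest rise outside the lists was that of DOX1, a fatty acid dioxygenase that makes oxylipins in defence, at 30.6 FPKM in TWT and 195 FPKM in fen1 (log2 2.67 in the authors' deposited table). KTI1, a trypsin inhibitor that limits cell death, had 20.3 FPKM in TWT and 72.3 FPKM in fen1 (log2 1.83 in the authors' deposited table). The oxylipin reductase gene OPR1 stood at 96.5 FPKM in TWT and 158 FPKM in fen1, and the syntaxin gene SYP122 at 14.0 and 20.9 FPKM. The falls outside the lists ran from a log2 of −5.83 for GRP-3 to −0.41 for GRP23 in the authors' deposited table. The likeness of GRP-3 to other genes was not measured and the treatment of shared reads was not given, so its level is uncertain. The ankyrin gene AT5G54610 had 24.3 FPKM in TWT and 17.7 FPKM in fen1 (q = 0.0469 in the authors' deposited table).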
